A study of Mus musculus with 21 samples.

Results

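The genes described here mark the blood vessels and coverings of the brain: 34 symbols for endothelial cells, mural cells (the pericytes and smooth muscle of the vessel wall), collagens, and meningeal fibroblasts with their matrix. They were taken as a list of names, with no measured value in the rule. The members and their lists were, however, chosen with earlier results of these data known. Of the 34 symbols, 33 matched a gene symbol among the 22040 genes listed in at least 1 of the 4 deposited tables. The list holds 10 endothelial, 8 mural, 7 collagen and 9 meningeal and matrix genes.

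Endothelial cells line the vessels and, in the brain, form the blood-brain barrier with tight junctions, uptake carriers and efflux pumps. Pericytes and smooth muscle cells wrap these tubes and share a receptor for platelet-derived growth factor, while fibroblasts of the meninges and the vessel sheath deposit fibrillar collagen and small proteoglycans. Basement membranes between vessels and brain hold type IV collagen and fibronectin. Primary cortical cultures are prepared for their neurons, and the levels of these genes are described here without assigning the transcripts to a cell type, since other brain cells express some of them.

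The RNA came from 21 cultures of cortical neurons, prepared from newborn mouse pups. The Tau cultures carried hTau P301S, a mutant human tau cDNA under the prion promoter, and were seeded with pre-formed fibrils (PFF) on day 7 and cultured for 18 more days. The growth protocol describes seeding for the transgenic neurons, whereas the paper's account of the RNA-seq speaks of seeding for WT neurons too, so whether the WT cultures were seeded could not be settled. All cultures had received 1 μM cytosine arabinoside (AraC), which kills dividing cells, against glia. AdipoRon, an activator of the adiponectin receptors, or its vehicle DMSO was given for 24 h, at 10 μM by the sample tags (the protocol text deposited with the samples has mM). There were 5 Tau cultures with DMSO, 5 Tau with AdipoRon, 5 wild-type (WT) with DMSO and 6 WT with AdipoRon.

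Each of the 4 tables belongs to a pair of these groups, and for each gene it holds the mean expression over the pair as log2 CPM, the log2 read count of a gene scaled to a fixed library total by edgeR. The tables thus describe 4 pools: DMSO (10 cultures, both genotypes), AdipoRon (11 cultures, both genotypes), Tau (10 cultures, both treatments) and WT (11 cultures, both treatments). The Tau and WT pools share no culture, and neither do the DMSO and AdipoRon pools, but every culture is in both of these splits. By the reporting summary, samples of the same animal went into each treatment, so the DMSO and AdipoRon pools share animals, and cultures of a genotype outnumber its pups. The pairs were read from the table names, and the sample descriptions cite the tables differently: no sample cites the table of the WT pool, and the WT samples with AdipoRon cite that of the DMSO pool beside their own. Values of single cultures were not analysed here. The paper gives an average number of reads per sample, and the tables give no depth for single cultures. The pooled means carry no replicate error, no test could be made, and a difference between pools is a description.

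Levels of the vascular and meningeal genes spread widely, also within each list. Pecam1 and Tek, both on the endothelial list, lay below 0 log2 CPM in every pool. By contrast, type IV collagen, fibronectin, the glucose carrier Slc2a1 and the organic anion carrier Slco1a4 lay well above the median gene. Median levels of the endothelial list were between 0.54 and 1.05 log2 CPM in the 4 pools, and those of the mural list between 0.54 and 1.17. These medians cover different genes, since Kcnj8 was listed in the WT and AdipoRon pools only and Cdh5 in the WT pool only. Over genes listed in all 4 pools, the mural median was 1.16 in the WT and 1.38 in the AdipoRon pool. The endothelial median in the WT pool was then 0.77. The collagens had medians of 4.70 to 4.96 and the meningeal and matrix genes 2.32 to 3.11. Over all genes listed in a pool the median was 3.54 to 3.89. Summed over the listed members, the level came to 682 to 722 CPM, or 0.0681% to 0.0721% of the total in a pool.

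**Figure D1:**
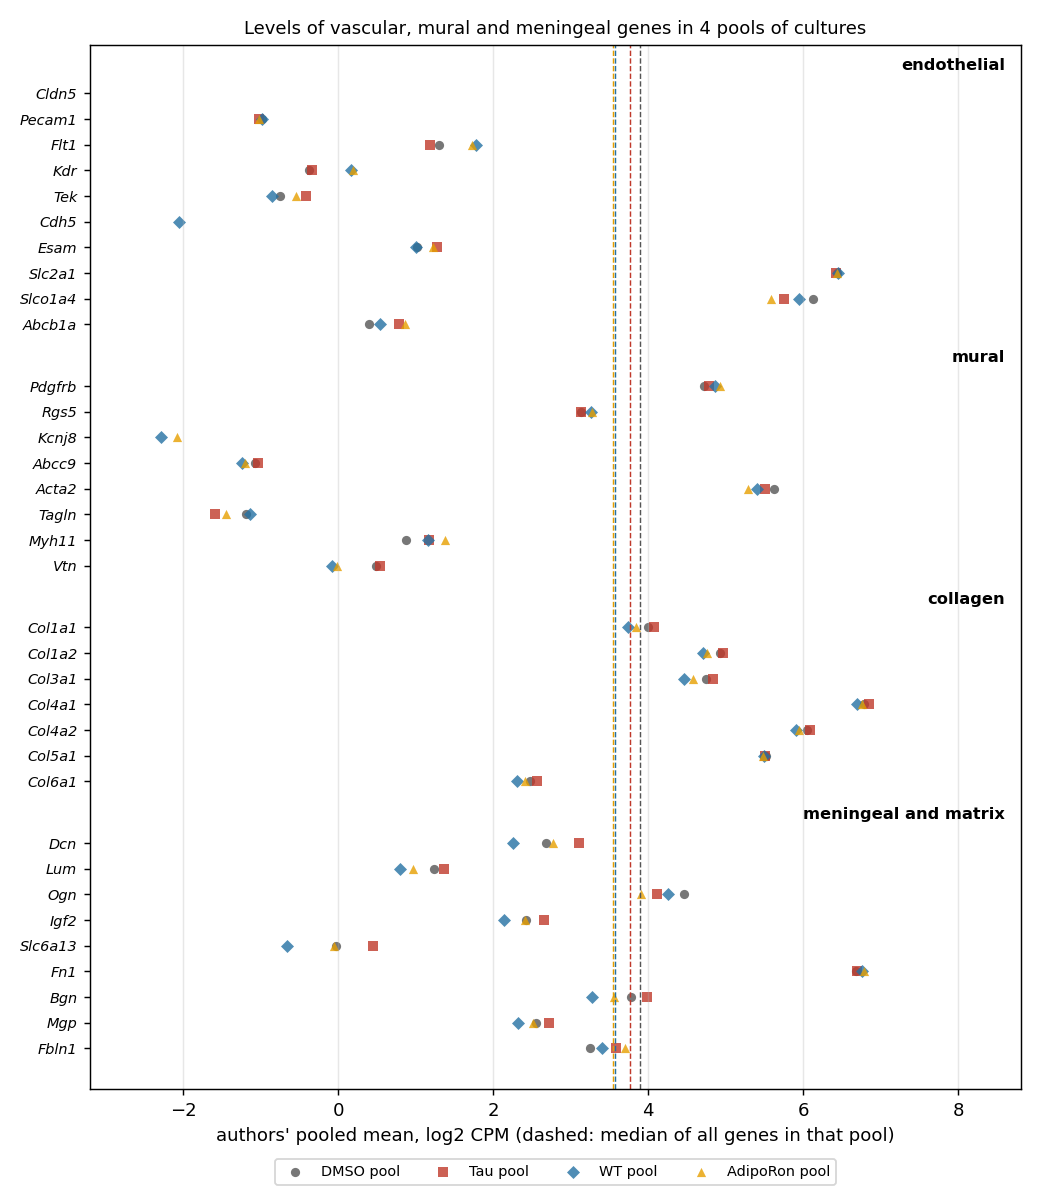
Authors' pooled mean of each vascular, mural, collagen and meningeal gene (horizontal axis, log2 CPM) in the DMSO, Tau, WT and AdipoRon pools (1 symbol each), with dashed lines at the median of all genes in each pool. Slc2a1, Slco1a4, Acta2, Col4a1 and Fn1 lie far to the right of the lines in every pool, Pecam1, Tek, Abcc9 and Tagln lie to the left of 0, and Cldn5 has no symbol because it was not analysed here.

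Adhesion and junction genes of the endothelium were low or not analysed. Cldn5, which encodes the barrier's claudin, had no row in the tables used here and was not analysed. Cdh5, the endothelial cadherin, was listed in the WT pool only, at -2.06 log2 CPM, where the lowest level of any gene was -3.11. Pecam1, an adhesion molecule of endothelial junctions, stood at -0.99 in the DMSO, -1.02 in the Tau, -0.98 in the WT and -1.02 in the AdipoRon pool. These 4 values span 0.04, less than any other endothelial gene but Slc2a1 among those listed in all 4 tables. Esam, another junction molecule, was at 1.02, 1.28, 1.00 and 1.23 in the same order.

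Receptors of the vessel growth pathways were low as well. Kdr, the main signalling receptor for vascular endothelial growth factor, was at -0.37 in the DMSO, -0.33 in the Tau, 0.16 in the WT and 0.20 in the AdipoRon pool. Flt1, a receptor that binds the same factor, was at 1.30, 1.19, 1.77 and 1.72 in that order, and both receptors thus had their lower values in the DMSO and Tau pools. Tek, the receptor for angiopoietins, did not share this order, with -0.76, -0.41, -0.86 and -0.54.

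Transport genes of the barrier split into high and low. Slc2a1, which encodes the glucose carrier GLUT1, was at 6.44 in the DMSO, 6.42 in the Tau, 6.45 in the WT and 6.43 in the AdipoRon pool. Slco1a4, a carrier of organic anions, was at 6.12, 5.74, 5.95 and 5.59 in the same order, lowest with AdipoRon. Abcb1a, the efflux pump P-glycoprotein, was at 0.40, 0.78, 0.54 and 0.87. Per kilobase of the canonical transcript, which allows genes to be compared, Slc2a1 exceeded Pecam1 by 7.15 to 7.18 log2 and Slco1a4 exceeded it by 6.50 to 7.00. With the union of all exons as the length these differences were 8.52 to 8.54 and 6.84 to 7.34, so their size, but not their direction, depends on the transcript model. GLUT1 is also made by glia, and without single cultures or cells the source of its transcripts was not tested.

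Mural genes showed the same kind of division. Pdgfrb, the platelet-derived growth factor receptor of pericytes and fibroblasts, was at 4.72 in the DMSO, 4.78 in the Tau, 4.86 in the WT and 4.92 in the AdipoRon pool. Rgs5, a regulator of G protein signalling abundant in pericytes, was at 3.13, 3.13, 3.26 and 3.28. Both were higher in the WT than in the Tau pool and higher in the AdipoRon than in the DMSO pool, by at most 0.20. The subunits of the pericyte potassium channel that senses ATP were scarce. Its regulatory subunit Abcc9 was at -1.07, -1.04, -1.25 and -1.21, and its pore subunit Kcnj8 was listed only in the WT (-2.28) and AdipoRon (-2.08) pools. Per kilobase, Pdgfrb exceeded Abcc9 by 6.26 to 6.59 log2.

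The contractile genes of smooth muscle did not go together in level. Acta2, smooth muscle actin, was at 5.62 in the DMSO, 5.51 in the Tau, 5.40 in the WT and 5.29 in the AdipoRon pool. Tagln, transgelin, which binds actin in the same cells, was at -1.18, -1.59, -1.13 and -1.45. Myh11, the smooth muscle myosin heavy chain, was at 0.87, 1.17, 1.16 and 1.38. Per kilobase, Acta2 exceeded Tagln by 5.78 to 6.34 log2, which is 54.8-fold to 81.0-fold, and Myh11 by 5.14 to 5.98 log2. Vtn, which encodes vitronectin, a matrix protein made by brain pericytes, had low values of 0.49, 0.54, -0.08 and -0.01.

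Collagens were the group closest to the median gene per kilobase. The basement membrane chains were the highest of them, with Col4a1 at 6.79 log2 CPM in the DMSO, 6.84 in the Tau, 6.69 in the WT and 6.76 in the AdipoRon pool. Col4a2, which encodes the partner chain, was at 6.04, 6.08, 5.90 and 5.95. These genes lie head to head, and their annotated first exons share 22 bases in RefSeq (GRCm38.p6), a small part of their 6615 and 6746 bases of canonical transcript. Per kilobase, Col4a1 exceeded Col4a2 by 0.77 to 0.84 log2 (1.71-fold to 1.79-fold) in the 4 pools. Col5a1, a chain of type V collagen, which seeds fibrils, was at 5.52, 5.50, 5.49 and 5.48.

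The fibrillar collagens of fibroblasts were lower than the type IV chains. Col1a2 was at 4.93 in the DMSO, 4.96 in the Tau, 4.70 in the WT and 4.75 in the AdipoRon pool, and Col1a1, whose chain is the more numerous in the type I trimer, was at 3.99, 4.07, 3.74 and 3.84. Per kilobase of the canonical transcript, Col1a2 exceeded Col1a1 by 1.03 to 1.11 log2. When the union of all annotated exons, which is 12650 bases for Col1a2 and 6567 for Col1a1, served as the length, the difference lay between -0.06 and 0.02, so the order of these chains depends on the transcript model. Col3a1 was at 4.74, 4.83, 4.46 and 4.58, and Col6a1, a chain of the microfibrils around cells, was the lowest collagen at 2.47, 2.57, 2.30 and 2.41.

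Matrix genes of the meninges ranged from scarce to abundant, with fibronectin the highest. Fn1 was at 6.68 log2 CPM in the DMSO, 6.69 in the Tau, 6.76 in the WT and 6.78 in the AdipoRon pool. The small leucine-rich proteoglycans, which coat collagen fibrils, spanned a wide range. Ogn (osteoglycin) was at 4.46, 4.11, 4.25 and 3.90. Bgn (biglycan) was at 3.77, 3.99, 3.27 and 3.56, Dcn (decorin) was at 2.68, 3.11, 2.26 and 2.77, and Lum (lumican) was at 1.24, 1.37, 0.80 and 0.97. Bgn, Dcn and Lum each had their highest value in the Tau pool and their lowest in the WT pool, whereas Ogn was highest with DMSO and lowest with AdipoRon.

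Of the remaining matrix genes, Fbln1, fibulin 1, was at 3.24 in the DMSO, 3.59 in the Tau, 3.40 in the WT and 3.70 in the AdipoRon pool. Mgp, matrix Gla protein, an inhibitor of calcification, was at 2.55, 2.72, 2.32 and 2.51. The growth factor gene Igf2, which meningeal cells and choroid plexus express strongly, was at 2.43, 2.66, 2.14 and 2.41. Slc6a13, which encodes a GABA carrier of the meninges, was the scarcest at -0.03, 0.44, -0.66 and -0.05. Its span of 1.11 over the pools was the widest of the 31 members listed in all 4 tables, for which the median span was 0.40, against 0.20 over the 19399 genes listed in all 4. Low levels carry more noise, so these spans are not set against each other by a test.

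Per kilobase, the median of the endothelial list lay 3.67 to 4.29 log2 under that of all genes in the 4 pools, and that of the mural list 2.79 to 3.64 under it. Collagens lay 0.08 to 0.14 and meningeal and matrix genes 0.54 to 0.88 under it. The mural medians of the WT and AdipoRon pools include the scarce Kcnj8, and the endothelial median of the WT pool includes Cdh5. The genes behind these medians thus differ between pools. By percentile of level per kilobase, from 0 for the scarcest gene listed to 100 for the most abundant, Abcc9 was between 0.37 and 0.89, Pecam1 between 2.51 and 5.25 and Kdr between 2.18 and 7.60. At the other end, Slc2a1 was between 78.8 and 79.8, Acta2 between 72.2 and 76.5, Col4a1 between 74.6 and 76.5, Slco1a4 between 68.8 and 76.3, Fn1 between 67.5 and 70.5 and the short transcript of Mgp between 59.5 and 65.3. The percentiles were taken over 17577 genes in the DMSO pool and 18671 in the WT pool. They can therefore differ between pools where the level does not.

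**Figure D2:**
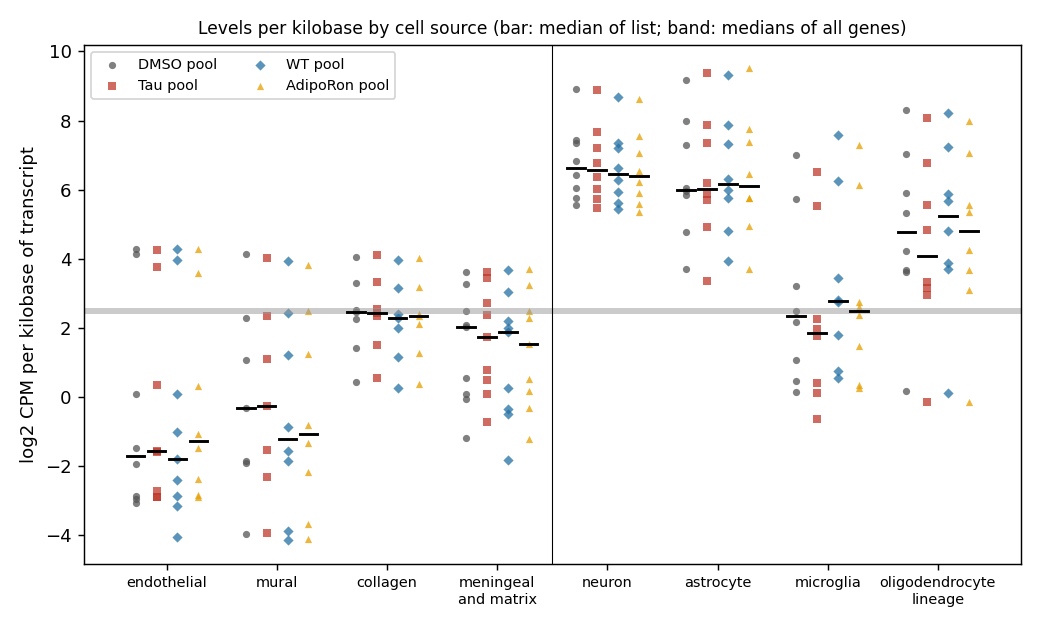
Level per kilobase of canonical transcript (vertical axis, log2 CPM per kilobase) of each gene by list, with 4 columns for the DMSO, Tau, WT and AdipoRon pools, black bars at list medians and a grey band over the medians of all genes. Endothelial and mural medians lie below the band, collagen medians lie in it or just under it, and the neuron and astrocyte lists lie above 3 throughout.

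Markers of other cells set these levels in context and check the label of the cultures. The 8 neuron markers (such as Snap25, a vesicle fusion protein, and Map2 of dendrites) had medians of 6.38 to 6.62 log2 CPM per kilobase and summed levels of 3835 to 4398 CPM. The 8 astrocyte markers, among them Gfap, were close to these per kilobase, at medians of 6.00 to 6.15, and summed to 4617 to 4941 CPM. The 8 microglia markers summed to 250 to 478 CPM and the 8 markers of the oligodendrocyte lineage to 1167 to 1555 CPM. All 32 of these genes were listed in every pool. Neuron markers were thus abundant, but the astrocyte markers summed to more CPM than the neuron markers in every pool. The endothelial genes listed in a pool (8 or 9 of 10) summed to 144 to 164 CPM, most of it Slc2a1 and Slco1a4. The mural genes listed (7 or 8 of 8) summed to 83.8 to 88.6 CPM. The 7 collagens summed to 275 to 310 CPM and the 9 meningeal and matrix genes to 164 to 174. In bulk RNA, fewer cells of a type and less RNA per cell cannot be told apart.

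Between the Tau and WT pools, the meningeal and matrix genes differed most among the lists of members. Their median difference, Tau minus WT, was 0.52 log2 CPM, with 7 of 9 genes above 0. Over all 19890 genes listed in both pools the median was 0.00 and 50.7% lay above 0. Of the 31 members in both pools, 6 were higher in the Tau pool by at least 0.5 log2, against 4.22% of all genes. These were Slc6a13 (1.11), Dcn (0.85), Bgn (0.72), Vtn (0.61), Lum (0.57) and Igf2 (0.52), of which all but Vtn are on the meningeal and matrix list. Slc6a13 and Vtn were below 0 log2 CPM in the WT pool. When a level over 0 in both pools was required, 4 members were higher, and no share over all genes was counted for that setting. Flt1 alone was lower by that much, at -0.58, against 3.51% of all genes, and Kdr, at -0.49, was just under the limit. The limit of 0.5 was chosen after seeing the data, and the shares cover genes of every level. The members' median level was 3.11 log2 CPM in the Tau and 2.30 in the WT pool, against 3.77 and 3.57 over all genes.

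The 7 collagens were all above 0 in this difference, from 0.01 (Col5a1) to 0.37 (Col3a1), with a median of 0.25. Endothelial genes were spread around 0 (median -0.03, from -0.58 to 0.45), as were mural genes (median 0.01, from -0.46 to 0.61). Fn1, at -0.07, and Ogn, at -0.14, were the meningeal and matrix genes below 0. Microglia markers differed in this split as well, since all 8 were lower in the Tau pool, with a median of -1.06, and so were all 8 markers of the oligodendrocyte lineage, with a median of -0.49. Neuron markers had a median difference of 0.10 and astrocyte markers one of 0.03. The part of cell composition in the differences of the matrix genes was not tested. The tables were normalised separately, and 5 of 10 Tau cultures and 6 of 11 WT cultures had received AdipoRon.

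**Figure D3:**
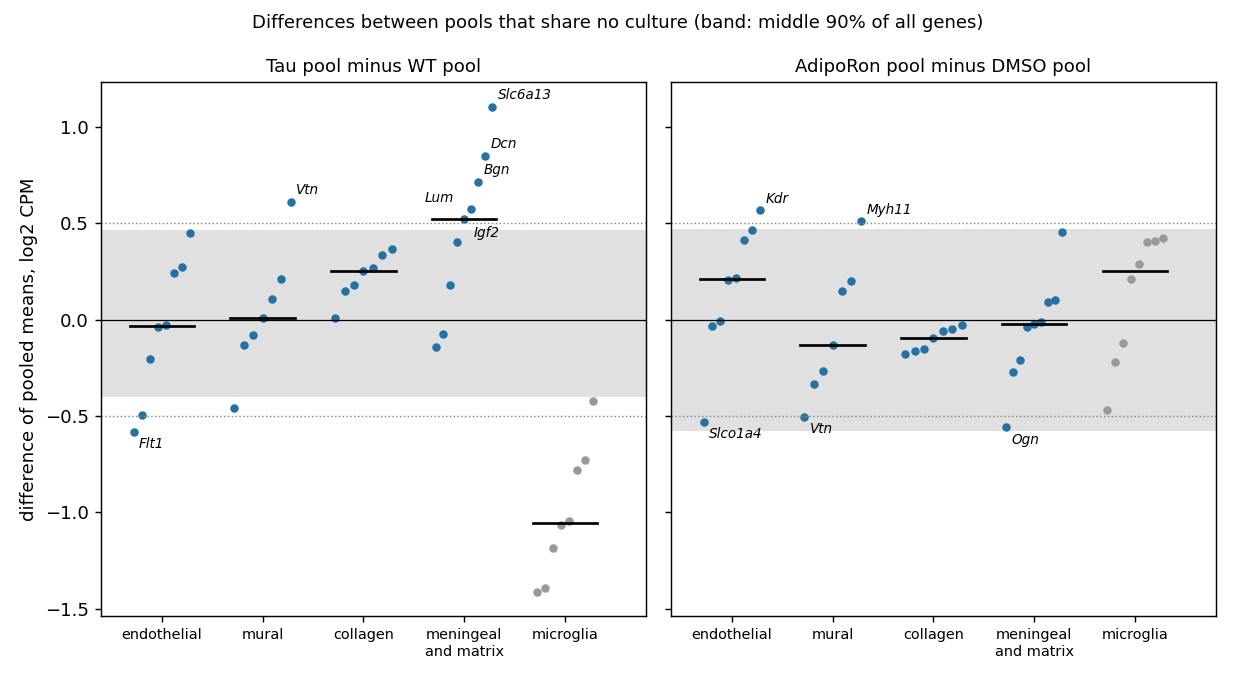
Difference of pooled means (vertical axis, log2 CPM) of each gene, Tau minus WT pool on the left and AdipoRon minus DMSO pool on the right, with black bars at list medians, dotted lines at 0.5 and -0.5, a grey band over the middle 90% of all genes, and microglia markers in grey. On the left 5 meningeal and matrix genes lie above 0.5 and the microglia markers below 0, and on the right list medians lie between -0.13 and 0.25, with all 7 collagens below 0.

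Between the AdipoRon and DMSO pools, the members differed less by list. Kdr (0.57) and Myh11 (0.51) were higher with AdipoRon by at least 0.5 log2, which is 2 of 31 members in both pools, against 4.36% of the 19693 genes listed in both. Ogn (-0.56), Slco1a4 (-0.53) and Vtn (-0.51) were lower by that much, against 6.39% of all genes. Abcb1a (0.47), Fbln1 (0.46) and Flt1 (0.42) were just under the limit.

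By list, the median difference with AdipoRon was 0.21 for endothelial genes, with 5 of 8 above 0, and -0.13 for mural genes, with 3 of 7 above 0. All 7 collagens were below 0, from -0.03 (Col4a1) to -0.18 (Col1a2), with a median of -0.10, where the median over all genes was 0.02 and 55.0% lay above 0. The meningeal and matrix genes had a median of -0.02, with 3 of 9 above 0. The median was 0.25 for microglia markers, -0.15 for those of the oligodendrocyte lineage, -0.21 for those of neurons and 0.05 for those of astrocytes. Whether any of these differences exceeded the spread between cultures could not be told from pooled means. The AdipoRon pool holds 5 Tau and 6 WT cultures and the DMSO pool 5 of each, and these tables, too, were normalised separately.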

How the data were processed

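RNA-seq of 21 primary cortical neuron cultures was used as 4 tables, each for a pair of groups. According to the methods and labels, the authors trimmed the reads, aligned them to mm10 with STAR (the paper's results name GRCm39 and the files Rsubread), quantified them with RSEM and fitted edgeR's generalized linear model. Versions, library normalization and the gene filter are not given in the sources used here. The authors deposited the mean expression of each gene over a pair as log2 CPM, with the pairs read from the table names (sample descriptions cite the tables differently), and this was the value used. The 5 other columns of results hold the authors' own comparisons (fold change, likelihood ratio, p-value, false discovery rate and call) and were not used, so no comparison between single groups was made.

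From the log2 CPM, medians, percentiles and differences between pools sharing no culture were computed with pandas 2.3.3 in Python 3.11.15. The counting of differences was checked on simulated data with large shifts, which covered neither percentiles nor the spread between cultures. Differences of at least 0.5 log2 were counted. Levels per kilobase used the canonical transcript of GENCODE vM39, matched by symbol for 87.3% to 88.7% of genes. The tables give no depth per culture, and the pooled means have no error. All 34 listed genes were named, and markers of other cells came from a fixed list. The members and lists were chosen with earlier results of these data known, and the limit of 0.5 after seeing the data. Alternatives were means for medians, leaving out Slc2a1, Vtn, Fn1 and Col4a1, genes in all 4 tables, other limits, centring, a minimum level and exon union lengths.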

Additional observations from a re-analysis of the deposited data

How the results depend on the processing

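No paired analysis was possible because the tables hold no values per culture, and the planned edgeR and DESeq2 fits, their normalizations, filters and the leaving out of each replicate were not run for that reason. Of 67 alternative values, 47 stayed within 1.5 times of the value given above. With means for medians, the endothelial list was at 1.65 (DMSO pool), 1.71 (Tau), 1.33 (WT) and 1.81 (AdipoRon) log2 CPM and the mural list at 1.80, 1.79 and 1.24 in the DMSO, Tau and WT pools, since a few abundant genes lift the mean. Without Vtn the mural medians were 2.00, 2.15, 1.16 and 1.38 in the DMSO, Tau, WT and AdipoRon pools, and with mural genes in all 4 tables (without Kcnj8) they were 1.16 in the WT and 1.38 in the AdipoRon pool. Limits, centring and a minimum level were chosen after seeing the data. Shares over all genes were counted at the limit of 0.5 log2 only, so the counts of members that follow are not set against all genes. With a limit of 0.4 log2, 3 members were lower in the Tau than in the WT pool and 5 were higher with AdipoRon. With 0.6, 0 members were lower in the Tau pool, and 0 were higher and 0 lower with AdipoRon. Centring on all genes left 1 member higher with AdipoRon, as did a level over 0 in both pools. The number higher in the Tau pool changed with the limit, from 8 at 0.4 to 4 at 0.6. It was 6 with centring and 4 with a level over 0 in both pools. Per-kilobase medians relative to all genes stayed within 1.5 times with exon union lengths, although the excess of Slc2a1 over Pecam1 went from between 142-fold and 145-fold to between 367-fold and 373-fold.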
